A study of Mus musculus with 9 samples.

Results

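The genes of the cytosolic ribosomal proteins were described here by their chromatin accessibility in B cells of 3 Tlr9 genotypes, as a reference set of genes that every cell uses. Members were the peaks that overlap, by at least 1 base, the RefSeq body of a protein-coding gene whose symbol is Rpl or Rps followed by a number. The Rps6k kinases, the Rpl-like and Rps-like genes, pseudogenes and Gm genes were left out. The rule found 73 genes, 43 of the large and 30 of the small subunit, on 19 chromosomes. Of these, 69 held at least 1 peak, and together they held 99 of the 61540 peaks in the table.

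The assay was ATAC-seq, where a transposase enters open chromatin and tags it, on 9 sorted spleen samples of age-associated B cells, 3 per genotype. Age-associated B cells are a B cell subset that builds up with age and in lupus. The samples were KO (Tlr9-/-), P915H (both Tlr9 copies carry the P915H change, which the series title calls non-signaling) and WT (intact Tlr9). All came from bone marrow chimeras of the 3 genotypes mixed, aged 20 weeks, on the MRL/lpr background, so the Fas lpr mutation, a lupus model allele, is shared by all groups. The labels do not say how the sort told the genotypes apart. The labels do not say whether replicates came from separate mice, so p-values measure only the spread between these samples, which may be technical.

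Each ribosome is built from a small subunit, which reads the mRNA, and a large subunit, which joins amino acids, and each protein of either subunit is needed in equal numbers. The genes are scattered over the genome and are transcribed at a high rate from short promoters. Their mRNAs begin with a tract of pyrimidines, through which mTORC1 and LARP1 govern their translation. TLR9 senses DNA in endosomes of B cells and signals through MyD88.

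The promoters of 7 genes are shown with matches to an ETS-family motif (CCGGAAG) or the YY1 motif (AANATGGC) in capitals. Rpl37 and Rps21 are among the 4 most accessible members, Rps6 is the classical target of S6 kinase, Rpl34 and Rps27 carry the YY1 letters, and Rpl22 and Rps24 hold the only member peaks called in a comparison of genotypes. Each runs 5′ to 3′ on its gene's strand from 100 bases before to 20 bases after the RefSeq start, on GRCm38.p6 (mm10). Rpl37 is at chr15:5116513-5116632 (plus strand), Rps21 at chr2:180257279-180257398 (plus), Rps6 at chr4:86857348-86857467 (minus), Rpl34 at chr3:130730379-130730498 (minus), Rps27 at chr3:90213629-90213748 (minus), Rpl22 at chr4:152325626-152325745 (plus) and Rps24 at chr14:24490578-24490697 (plus).
Rpl37: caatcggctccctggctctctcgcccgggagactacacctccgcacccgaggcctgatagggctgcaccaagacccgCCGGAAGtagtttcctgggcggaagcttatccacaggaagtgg
Rps21: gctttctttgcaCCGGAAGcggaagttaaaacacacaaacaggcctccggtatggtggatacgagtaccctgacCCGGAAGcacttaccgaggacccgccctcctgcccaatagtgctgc
Rps6: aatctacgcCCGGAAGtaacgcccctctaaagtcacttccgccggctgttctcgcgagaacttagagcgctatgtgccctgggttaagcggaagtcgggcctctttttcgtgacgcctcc
Rpl34: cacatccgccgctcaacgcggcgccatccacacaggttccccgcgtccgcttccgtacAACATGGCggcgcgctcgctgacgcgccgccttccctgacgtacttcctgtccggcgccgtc
Rps27: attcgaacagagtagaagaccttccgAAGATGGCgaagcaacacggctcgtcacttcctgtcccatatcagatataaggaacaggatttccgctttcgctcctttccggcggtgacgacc
Rpl22: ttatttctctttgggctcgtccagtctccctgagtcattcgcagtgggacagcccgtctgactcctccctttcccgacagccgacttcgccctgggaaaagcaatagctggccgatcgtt
Rps24: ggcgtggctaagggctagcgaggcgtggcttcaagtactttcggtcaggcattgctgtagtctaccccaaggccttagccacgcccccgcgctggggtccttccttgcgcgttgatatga

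Motifs were searched by their letters on both strands in RefSeq promoter windows of 300 bases (250 before to 50 after the start), which 54 of the 73 genes had, in 64 windows. The ETS letters were in 35.9% of member promoters, in 11.6% of the 21262 promoters of all protein-coding genes and in 19.8% of the 11104 of these with a peak within 500 bp of their start. The YY1 letters were in 23.4%, 6.37% and 8.83% of the same 3 sets. The 2 motifs can share bases where one runs into the other, and 1 member promoter held both. SP1 letters (GGGCGG) were in 59.4%, 46.2% and 66.9%, the TATA box (TATAAA) in 7.81%, 12.6% and 6.09%, and the E-box (CACGTG) in 12.5%, 7.84% and 10.7%. A run of at least 5 pyrimidines opening with C within 5 bases of the start was in 43.8%, 18.6% and 19.7%. These are matches of letters, not sites of a factor. Start peaks with the ETS letters in their promoter had a median level of 4.93 (n = 20), against 5.05 without them (n = 31).

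Values are log2 and scaled like CPM (counts relative to all reads in peaks). A level is the mean of a peak's values over the 9 samples. The strongest of a gene's body-overlapping peaks within 500 bp of its start is called its start peak, and peaks wholly outside the body were not eligible. For the 16 such peaks of genes without a promoter entry, either end of the gene body was taken, since the table used gives no strand for them. Ribosomal protein genes had 67 start peaks, 20 weaker second peaks within 500 bp of a start and 12 body-overlapping peaks over 500 bp from a start. One peak was found in 44 genes, 2 peaks in 21, 3 in Rpl3, Rpl22 and Rpl34, and 4 in Rpl19. Of the 51 start peaks whose start RefSeq gives, 47 covered it, with the peak centre a median of 14 bp upstream (-14.0 bp, interquartile range -52.2 to 30.2).

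Start peaks ranked high among all peaks. Their median level was 5.01 (interquartile range 4.52 to 5.72), which is the 87.5th percentile of all peaks and the 61.3rd percentile of the 8315 start peaks of protein-coding genes. Of the 67, 27 (40.3%) were among the highest 10.0% of all peaks, which begin at 5.23, against 32.5% of the start peaks of all genes. The median was 4.84 for the 40 large subunit and 5.14 for the 27 small subunit genes. The other 32 peaks had a median level of 2.79, and none of them was among the highest 10.0%.

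Among the highest start peaks were those of Rpl37 (6.64) and Rpl27 (6.50), both proteins of the large subunit. The lowest were those of Rps18 (2.40), Rps14 (2.57) and Rpl10 (3.55). Each of these 3 had a stronger peak just outside the gene body, at 5.31 for Rps18 (21 bp away), 5.68 for Rps14 (19 bp) and 5.16 for Rpl10 (73 bp). In 9 genes in all, the strongest peak within 1 kb outside the body exceeded the start peak, so in these genes the start peak is not the strongest peak near the gene. Of the 4 genes with no peak over their body, Rpl13a, Rps19 and Rps25 each had one within 89 bp of it, at 6.76, 6.10 and 5.25. RPS19 is the gene most often mutated in Diamond-Blackfan anemia.

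**Figure D1:**
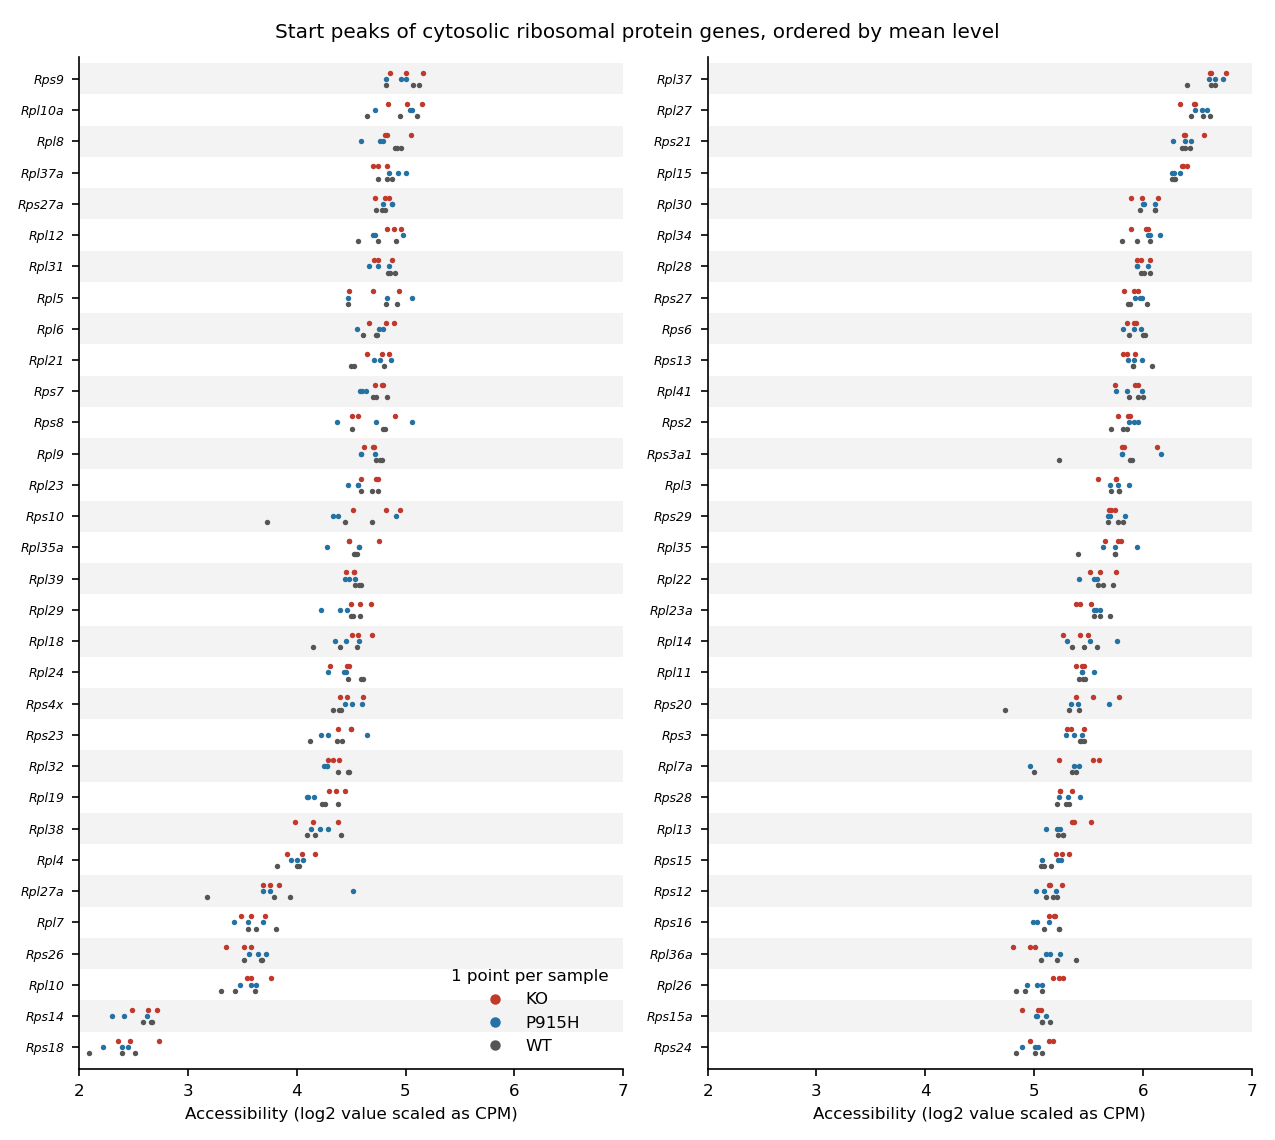
Accessibility of 64 of the 67 start peaks (x axis, log2 value scaled as CPM), 1 point per sample, coloured by genotype, with genes ordered by mean level in 2 columns. Levels run from 2.40 (Rps18) to 6.64 (Rpl37), and the points of the 3 genotypes lie close together for most genes, with WT replicate 3 far to the left for Rps10, Rps20 and Rpl27a.

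The samples were checked before the comparisons. Peaks lay over 7 of 8 B cell marker genes (none over Cd79a) and over all 5 age-associated B cell markers, against 5 of 8 T cell (none over Cd4, Cd8a and Thy1), 1 of 5 natural killer, 0 of 5 neutrophil, 5 of 6 macrophage and monocyte (none over Lyz2), 4 of 5 dendritic cell (none over Xcr1) and 1 of 5 erythroid markers. The summed macrophage and monocyte level (log2) was 6.05 to 6.23 in KO, 6.39 to 6.52 in P915H and 6.23 to 6.40 in WT, and the summed T cell level was 7.10 to 7.29, 7.13 to 7.23 and 7.09 to 7.24. B cell sums were 10.1 to 10.17, 10.2 to 10.28 and 10.21 in all 3 WT samples. Age-associated B cell sums were 8.56 to 8.59, 8.40 to 8.51 and 8.52 to 8.58. KO and P915H did not overlap in the macrophage and monocyte, B cell and age-associated B cell sums. WT also lay apart from KO in the B cell sums and from P915H in the age-associated B cell sums. Erythroid values were 4.50 to 4.74, 4.48 to 4.90 and 3.78 to 4.44, with WT below both other genotypes. Dendritic cell sums were 8.27 to 8.30, 8.29 to 8.43 and 8.29 to 8.31, and natural killer values 2.72 to 3.08, 2.78 to 2.90 and 2.77 to 3.25. How often genotypes fail to overlap over all peaks was not counted. The T cell sum is led by Cd3d (5.84, 5.87 and 5.90 in KO, P915H and WT), and single T cell genes differed more. Means in KO, P915H and WT were 1.99, 0.11 and 1.24 for Cd3e, 2.20, 0.15 and 1.28 for Cd3g and 3.91, 3.16 and 3.50 for Trac. In KO against P915H, 3 of the 9 T cell peaks were higher and 1 lower by the same test as below. That test called 15.5% of all peaks in this comparison. Of 87 B cell peaks 6 were higher and 14 lower, and of 40 age-associated B cell peaks 4 and 1. Of 28 dendritic cell peaks 3 were higher and 4 lower, and of 6 macrophage and monocyte peaks 0 and 1. The natural killer and erythroid peaks were not called. The part of cells other than B cells in the results was not tested. Library depth is unknown, since only log values were deposited. WT replicate 3 stood apart: it was the lowest of the 9 samples at 41.9% of the start peaks of all genes, and at 18 of the 67 ribosomal protein start peaks (26.9%). The interquartile range of its deviations from each peak's 9-sample mean at these 67 peaks was 0.243, against 0.107 to 0.156 in the other 8 samples.

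Across samples, the median over the 67 start peaks was 4.96, 5.06 and 5.04 in the 3 KO samples, 5.03, 4.96 and 5.04 in P915H and 5.07, 5.01 and 4.96 in WT. The ranges of the 3 genotypes overlapped almost fully, with means of 5.02 ± 0.053, 5.01 ± 0.044 and 5.013 ± 0.055 (SD, n = 3 each). The values were scaled to nearly the same total in each sample, so a shift shared by most peaks would not show. A replicate effect had also been removed, so SDs and deviations leave out differences between replicate numbers. The median deviation of a sample from each peak's own mean ran from -0.057 in P915H replicate 2 to 0.052 in P915H replicate 3, a span of 0.109. For the start peaks of all genes that span was 0.188, and 0.145 for those with a level of at least 4, a class chosen after the values were seen, against 0.119 for the 60 members in it. It was narrower over all peaks (0.062) and over peaks in coding gene bodies (0.078).

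**Figure D2:**
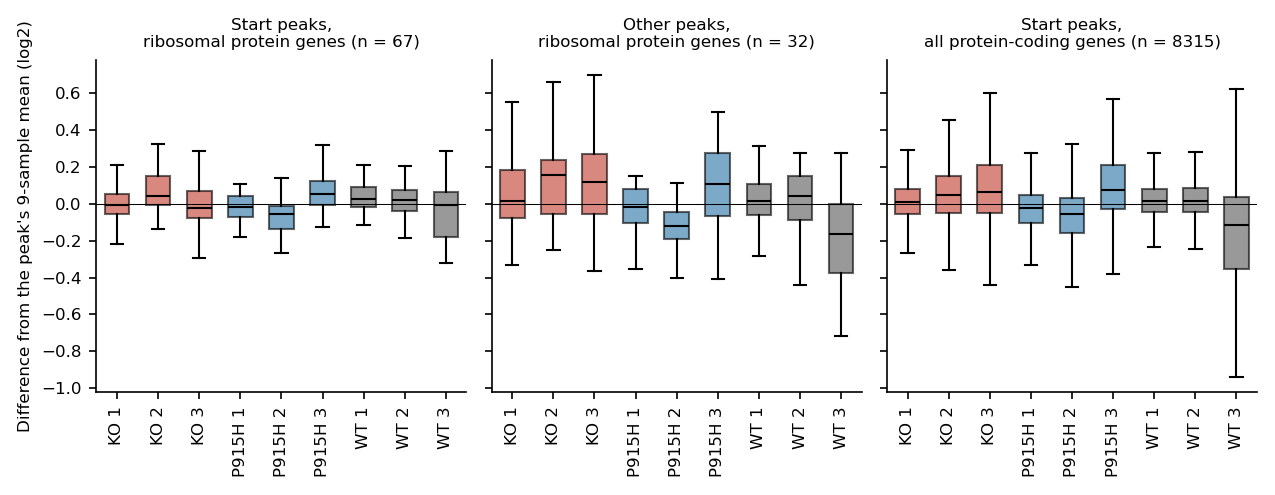
Difference of each sample from the 9-sample mean of each peak (log2), as boxes (median and quartiles, whiskers to 1.5 times the interquartile range, outliers not drawn) for the 67 start peaks, the other 32 peaks of ribosomal protein genes and the 8315 start peaks of all protein-coding genes. Medians of the 67 stay between -0.057 and 0.052, and the WT replicate 3 box is the widest for the 67 start peaks, at 0.243.

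Single start peaks varied little in the deposited values, from which a replicate effect had been removed at every peak. The ranges therefore leave out differences between replicate numbers. The range over the 9 samples had a median of 0.33, was highest for Rpl27a (1.34) and was under 0.5 for 54 of 67. The median residual SD of the fit was 0.114, against 0.161 for start peaks of all genes. With a level of at least 4 it was 0.098 against 0.126. The other 32 member peaks had a median residual SD of 0.264.

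**Figure D3:**
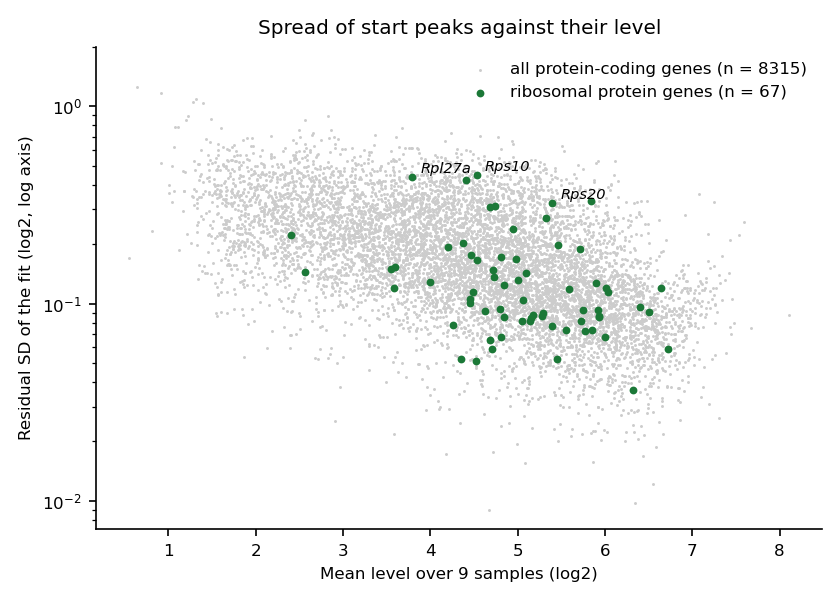
Residual SD of the fit (log axis) against mean level (log2) for the start peaks of all protein-coding genes (grey) and of ribosomal protein genes (green). Spread falls with level in both sets, the green points have a median of 0.114 against 0.161, and 3 with a range over 1 are named.

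The range exceeded 1 in 4 start peaks, among them those of Rps10, Rps20 and Rpl27a, and WT replicate 3 was the lowest sample in each. Rps10, a small subunit protein mutated in some cases of Diamond-Blackfan anemia, had values of 4.52, 4.82 and 4.95 in KO, 4.38, 4.33 and 4.91 in P915H and 4.69, 4.44 and 3.73 in WT. Rps20 had 5.39, 5.54 and 5.78 in KO, 5.40, 5.34 and 5.69 in P915H and 5.41, 5.32 and 4.73 in WT. Rpl27a had 3.75, 3.84 and 3.69 in KO, 3.69, 3.75 and 4.52 in P915H and 3.94, 3.79 and 3.18 in WT. In all 3 genes, the WT samples other than replicate 3 lay within or close to the range of the other genotypes. For each peak the deposited values have the same mean in every replicate number, so a low WT replicate 3 is set against higher values in KO or P915H replicate 3.

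KO was compared with WT to ask what loss of the receptor does. No member peak passed the limma test at an adjusted p under 0.05 (Benjamini-Hochberg over all 61540 peaks), 0 of 99. The share called was 0.0195% of all peaks and 0.0% of start peaks of protein-coding genes, so 0 is near that background. Without KO replicate 1 the count over all peaks was 3340 in place of 12, and without any other single sample it was 1 or 2, with 0 members called each time. At an unadjusted p under 0.05 there were 4 of 99 member peaks and 2 of 67 start peaks, while 18.7% of all peaks and 9.83% of start peaks of all genes were under it. Start peaks had a median log2 fold change of 0.004, between -0.29 and 0.48, beside 0.077 for start peaks of all genes.

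The largest positive start peak differences between KO and WT were those of Rps10 (0.48, SE 0.25) and Rps20 (0.41, SE 0.19), and neither passed. Without WT replicate 3 they were 0.06 and 0.10. The smallest p-values belonged to Rpl26 and Rpl36a. Rpl26, a large subunit protein that binds p53 mRNA, had 5.27, 5.23 and 5.17 in KO, 5.07, 5.03 and 4.94 in P915H and 4.83, 4.92 and 5.07 in WT. All 3 KO values were above the rest, and the difference from WT was 0.28 (SE 0.11, adjusted p = 0.200). X-linked Rpl36a had 4.96, 5.01 and 4.81 in KO, 5.15, 5.24 and 5.11 in P915H and 5.21, 5.06 and 5.39 in WT. Here all 3 KO values were below the rest, with a difference of -0.29 (SE 0.12, adjusted p = 0.220), or -0.17 without WT replicate 3. Rpl23a was also on the negative side, at -0.18, or -0.12 without WT replicate 1.

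P915H was compared with WT to ask what the point change does. Again 0 of 99 member peaks were called, against 0.255% of all peaks and 0.0361% of start peaks. The 157 peaks called over the whole table were 7 to 111 when 1 sample was left out, lowest without WT replicate 1. At an unadjusted p under 0.05 there were 2 member peaks and 0 start peaks, beside 7.72% of all peaks and 3.55% of start peaks of all genes. Start peaks had a median difference of 0.006, from -0.21 to 0.35, beside 0.034 for start peaks of all genes. The largest positive values were those of Rpl27a (0.35), Rps20 (0.32) and Rps3a1 (0.26), which were 0.01, 0.01 and -0.07 without WT replicate 3. On the negative side stood Rpl8 (-0.21), Rps14 (-0.20) and Rpl32 (-0.18), which were -0.12, -0.09 and -0.18 without P915H replicate 2. The stronger peaks just outside the bodies of Rpl27a and Rps14 gave 0.12 and -0.04. Rps14 is the gene whose lost copy underlies the anemia of the 5q- syndrome.

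KO was compared with P915H to set loss of TLR9 against the altered receptor. Of the 99 member peaks, 2 were called, both higher in KO and both inside a gene. The share called was 15.5% of all peaks and 14.6% of peaks in coding gene bodies. With single samples dropped, the share over all peaks was 16.8%, 6.2% and 5.8% for KO replicates 1, 2 and 3, 9.65%, 5.24% and 7.69% for those of P915H and 13.6% to 17.9% for those of WT. Of the 67 start peaks, 0 were called, against 4.5% of start peaks of all genes and 2.59% of those with a level of at least 4. At an unadjusted p under 0.05 there was 1, beside 11.7% of start peaks of all genes. Their median difference was 0.021, from -0.24 to 0.25, beside 0.036 for start peaks of all genes. The 3 comparisons share samples and are not independent.

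Rpl22 encodes a large subunit protein that ribosomes can do without and that T cell development needs. Its start peak (chr4:152325696-152325914) stood at 5.51, 5.75 and 5.61 in KO, 5.55, 5.41 and 5.58 in P915H and 5.73, 5.63 and 5.59 in WT, and the genotypes overlapped. The called peak lies 3506 bp from the start (chr4:152329232-152329568). Its values were 2.12, 3.42 and 2.17 in KO, 0.41, 0.21 and 1.00 in P915H and 2.25, 1.15 and 1.61 in WT. Every KO value was above every P915H value, while WT overlapped KO and lay above P915H. KO exceeded P915H by 2.03 on the log2 scale (SE 0.43, adjusted p = 0.0120), or 4.09-fold, and was apart from WT by 0.90 (adjusted p = 0.291). The latter was 0.26 without KO replicate 2 and 0.51 without WT replicate 2. The other Rpl22 peak had a level of 2.48 and a KO minus P915H difference of 0.19. Without KO replicate 2 the called difference was 1.39 (adjusted p = 0.0523), and without P915H replicate 2 it was 1.78 (0.0766), so the call was lost in both.

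Rps24, a small subunit protein whose gene is mutated in some cases of Diamond-Blackfan anemia, had its start peak (chr14:24490591-24490819) at 4.96, 5.14 and 5.17 in KO, 5.01, 4.89 and 5.04 in P915H and 5.07, 5.01 and 4.83 in WT. The called peak lies 4790 bp from the start (chr14:24495543-24495732), with 2.15, 2.74 and 2.59 in KO, 1.18, -0.55 and -0.60 in P915H and 0.05, 1.18 and 1.39 in WT. All 3 KO values were above all values of P915H and WT, and P915H and WT overlapped. KO exceeded P915H by 2.48 (SE 0.54, adjusted p = 0.0135), or 5.59-fold, and the difference from WT was 1.62 (SE 0.54, adjusted p = 0.149), or 1.00 without WT replicate 1. The peak is faint, at a level of 1.13. The call was lost without KO replicate 2 (0.0844), KO replicate 3 (0.0777), P915H replicate 2 (0.0854) or P915H replicate 3 (0.0596), with differences of 2.03 to 2.41. Both called peaks have their means in the order KO, WT, P915H, where the call itself sets KO above P915H. So have the T cell peaks of Cd3e, Cd3g and Trac. The order is not particular to T cell genes, since the strongest peaks of Cd79b, Siglech, Cd14 and Ccr2 have it too. Its share over all called peaks was not counted. The Cd3d peak (5.84, 5.90 and 5.87 in KO, WT and P915H) and the strongest Lck peak (4.71, 4.64 and 4.86) have other orders. So have the strongest peaks of the remaining marker genes. The part of T cells in the called peaks was not tested.

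**Figure D4:**
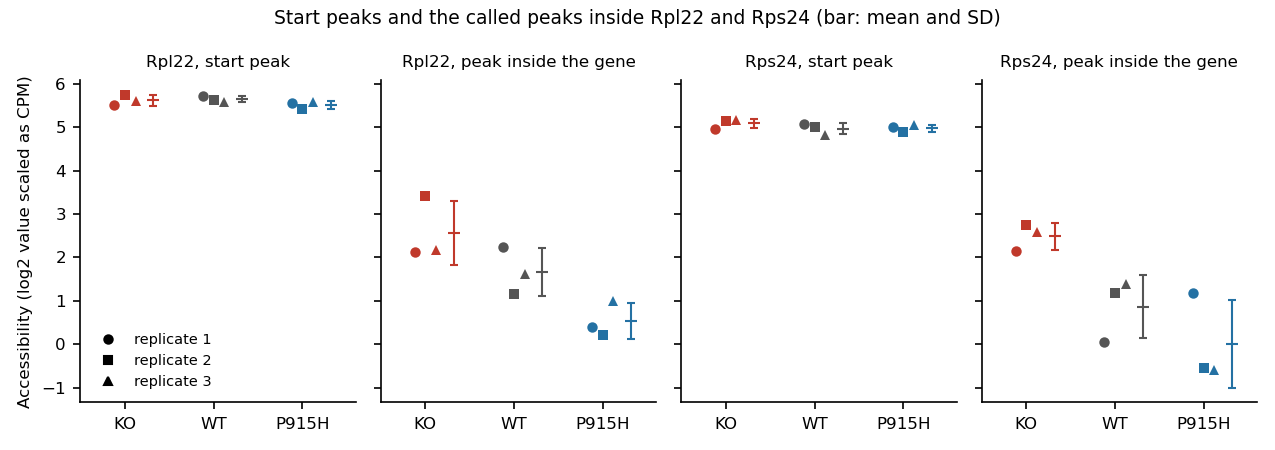
Values of the start peak and of the called peak inside Rpl22 and inside Rps24 (log2 value scaled as CPM), 1 symbol per sample by replicate number, with the mean and SD of each genotype beside them. Start peaks lie near 5.59 and 5.01 in all genotypes, while KO is above P915H in each inside peak with no overlap.

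Among start peaks, the largest KO minus P915H differences were those of Rpl19 (0.25, adjusted p = 0.192), Rpl13 (0.23, adjusted p = 0.170) and Rpl29 (0.22, adjusted p = 0.256), and the most negative those of Rpl36a (-0.24), Rpl27a (-0.23) and Rpl37a (-0.16). Rpl13 had 5.35, 5.52 and 5.37 in KO, 5.24, 5.11 and 5.21 in P915H and 5.27, 5.22 and 5.27 in WT, so its KO values were the 3 highest. Without P915H replicate 3 the Rpl27a value was 0.17, without KO replicate 2 that of Rpl13 was 0.14, and without P915H replicate 1 that of Rpl29 was 0.12. The stronger peak just outside the Rpl27a body gave 0.11. Rpl3, which reaches into the peptidyl transferase center, had a level of 5.75 and differences of -0.06, 0.02 and -0.08 in the 3 comparisons (KO against WT, P915H against WT, KO against P915H). Rps6 had a level of 5.93 and -0.06, -0.06 and -0.00, and Rps27a, made as a fusion with ubiquitin, had 4.81 and 0.02, 0.08 and -0.06. Rps19 had no body peak, and its nearest peak gave -0.05, -0.09 and 0.04. Rpl34 had a start peak of 6.01 with 0.05, 0.15 and -0.10, and its other peaks were at 3.44 and 2.26.

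No start peak had a log2 difference over 0.5 (1.41-fold) in either direction in any comparison. Over all peaks that share was 16.1%, 7.82% and 24.6% in the same 3 comparisons, and for start peaks of all genes with a level of at least 4 it was 1.87%, 0.625% and 1.75%. The 95% confidence interval lay within ±0.5 for 56, 61 and 57 of the 67. It did so in all 3 comparisons for 53 of 67 (79.1%), against 48.1% of start peaks of all genes. With a level of at least 4 the shares were 83.3% and 66.8%. The bounds farthest from 0 were 1.04, 0.92 and 0.79, so for the remaining 14 genes larger differences were not resolved with 3 samples a genotype. The 6 possible orders of the 3 genotype means each occurred in 8 to 17 genes, most often WT below P915H below KO. The share of this order over start peaks of all genes was not counted. WT replicate 3 was the lowest sample at 18 of the 67 start peaks.

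**Figure D5:**
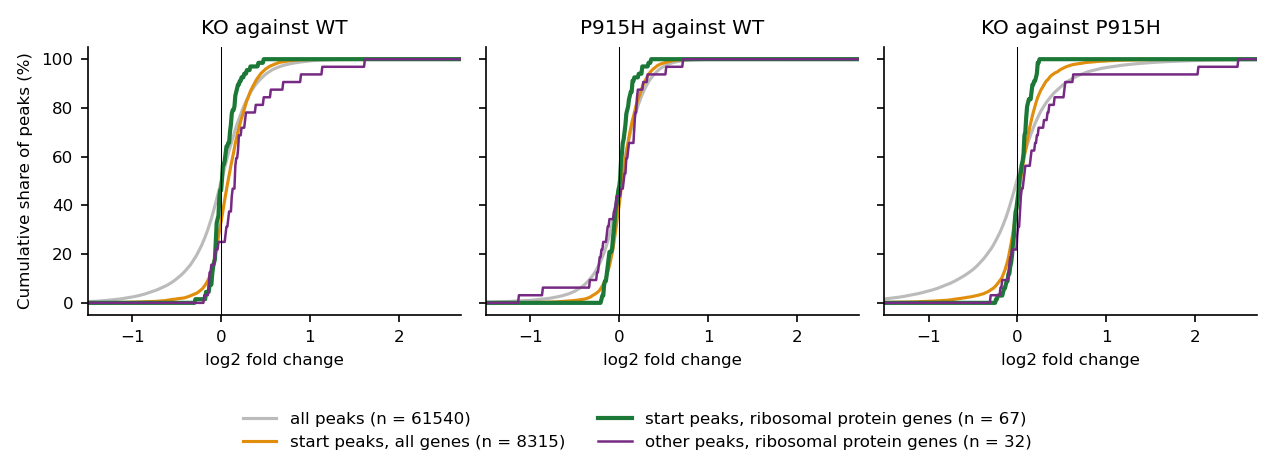
Cumulative share of peaks (%) against log2 fold change in the 3 comparisons, for all peaks, start peaks of all protein-coding genes, start peaks of ribosomal protein genes and their other peaks. The ribosomal protein start peaks rise steeply around 0 and stay within -0.29 and 0.48, while their other peaks have a tail to 2.48 in KO against P915H.

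Of the peaks counted as farther inside a gene, 1 in Rpl17 had a KO minus WT difference of 1.13 (adjusted p = 0.0731). It would be called at a threshold of 0.1. Rpl17 has no promoter entry, so its distance was taken from the ends of the gene body and its true start is not known here. The 4 peaks of Rpl19 had levels of 4.26 at the start, then 2.72, 2.42 and 1.78. Those at 2.72 and 2.42 lie 3310 and 4120 bp before the start used, and also over the body of the coding gene Cacnb1. Of the start peaks, 9 lie over the body of another coding gene, such as Rpl37 with Card6, Rps27 with Rab13 and Rpl15 with Nkiras1, and their accessibility cannot be assigned to one gene.

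Genes that act with the ribosomal proteins were read from lists. Against WT, 0 of their peaks were called in either genotype. In KO against P915H, genes of ribosomal proteins outside the name rule (such as Fau and Rpsa) had 0 of 7 peaks called. Mitochondrial ribosomal protein genes had 2 of 116 higher and 2 lower, led by Mrpl1 (1.60, adjusted p = 0.00421) and Mrps31 (-1.95, adjusted p = 0.00751). Ribosome biogenesis genes had 2 of 87 higher and 2 lower. Ubtf, which opens rRNA gene transcription, was higher in KO (1.12, adjusted p = 0.00445), and Heatr1 was lower (-0.93, adjusted p = 0.0173).

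Translation factor genes had 3 of 83 peaks higher and 1 lower. Eif4b, a cofactor of the eIF4A helicase, had 3.44, 3.27 and 3.03 in KO, 1.15, 1.51 and 1.19 in P915H and 2.09, 1.90 and 2.45 in WT, with WT between the others and no overlap. Its KO minus P915H difference was 1.96 (SE 0.23, adjusted p = 0.00127), and that of Eif4g3 was 0.80 (SE 0.09, adjusted p = 0.00135). In the mTORC1 and LARP1 list, 1 of 33 was higher, in the mTORC1 inhibitor Tsc1 (1.89, adjusted p = 0.00484), and 1 lower, in Rptor (-0.51, adjusted p = 0.0345). Of the 37 peaks of common reference genes, 1 was higher, the start peak of Gusb (0.49, adjusted p = 0.0212). All of these shares are below the 15.5% over all peaks, but not all are below the 4.5% of start peaks of all genes. The lists had median levels from 3.04 (mTORC1 and LARP1) to 5.47 (ribosomal proteins outside the name rule), against 3.03 over all peaks. Except for Gusb, the named peaks are not the gene's start peak.

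As a housekeeping reference, each sample was also centred on its median over the 67 start peaks, which moved samples by -0.058 to 0.059. The number of peaks called over the whole table was then 16, 199 and 8701 in the 3 comparisons, against 12, 157 and 9548 as deposited. Centred on the median of all peaks it was 643, 207 and 9932, and after quantile normalization 705, 160 and 9306. In KO against WT the count thus ran from 12 to 705 with the choice of scaling. In KO against P915H the split was 3775 higher and 4926 lower after centring, and 4028 and 5520 before. Leaving out 1 sample also moved the counts after centring on the 67 start peaks, to 4516 for KO against WT without KO replicate 1, 13 for P915H against WT without WT replicate 1 and 3349 for KO against P915H without KO replicate 3.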

How the data were processed

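The value table (9 sample columns) and the peak table list the same 61540 peaks in the same order. The authors deposited log2 values, scaled like CPM over peaks (their antilogs sum to 0.987 to 1.014 of the CPM total), and peak positions, with mm10 the build named by the submitters' processing notes. Per the submitters' processing notes MACS2, limma, SAMtools, Bowtie2 2.3.3, Picard 2.18.12 and Trim Galore 0.6.5 were used. At every peak the mean over genotypes was equal in replicates 1, 2 and 3 (to 1.4e-14), so a replicate effect had been removed before deposit. For that reason limma 3.58.1 (R 4.3.3) was fitted to all 9 samples with genotype and replicate number as terms (4 residual degrees of freedom, trend over level), with Benjamini-Hochberg adjustment over 61540 peaks and a threshold of 0.05. Genes, starts and promoters are RefSeq, GRCm38.p6; sequences are RefSeq too. The fit was tested on simulated data, with changes set in KO at peaks drawn from the whole table. It called 2.0%, 37.2%, 90.4% and 96.8% of log2 changes of 0.5, 1, 2 and 3 in KO against WT. Named genes are those called, the 3 most positive and negative start peaks and smallest p-values per comparison, the 3 highest and lowest levels, genes with at least 3 peaks, those without a peak, and 6 chosen for known roles; in other lists, the 2 smallest p-values. Members and lists were chosen with earlier results of these data known. Tables were made with Python 3.11.15 and pandas 2.3.3. Some genes that these rules select are not reported here by name, and counts and medians include them.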

Additional observations from a re-analysis of the deposited data

How the results depend on the processing

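No member peak was called in P915H against WT under any alternative run. In KO against WT the count of 0 became 2 with no replicate block, 1 with sample weights and 1 at an adjusted p under 0.1, while the first 2 settings called 11.1% and 2.5% of all peaks. In KO against P915H the count of 2 became 5 with no replicate block, and ranged from 0 to 2 when 1 sample was left out (0 without KO replicate 2 or P915H replicate 2). Without the replicate block the start peaks of Rpl26 (KO against WT, adjusted p = 0.0457), Rpl19 (0.0375) and Rpl13 (0.0381, both KO against P915H) passed the limma test. Whether the replicate numbers pair the samples cannot be checked, because a replicate effect had been removed. That fit counts 6 residual degrees of freedom in place of 4, and it calls 27.7% of all peaks in KO against P915H.

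The median of the 67 start peaks moved by more than 1 SD only in these cases: KO replicate 1 was 5.02 by the mean, P915H replicate 3 was 4.99 centred on all peaks, 4.98 after quantile normalization and 5.11 by the mean, and WT replicate 3 was 5.01 after quantile normalization. After centring on the 67 start peaks (chosen, with its own alternatives, after seeing the data), leaving out 1 sample gave 1 to 4516 calls in KO against WT, 13 to 177 in P915H against WT and 3349 to 11210 in KO against P915H. The cause was not tested. Depth is unknown, so counting error at faint peaks such as that of Rps24 has no estimate.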
